A study of Camelina sativa with 12 samples.

Results

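The shoot transcriptomes of the *rolD::acdS* and *35S::acdS* lines of *C. sativa* were compared with each other under salt, 3 libraries against 3, out of the 12 libraries of the study. The genes compared were the 56932 of 89418 with 0.5 CPM or more (the counts of a gene relative to the total of its library, scaled by a fixed factor) in 3 or more libraries. Both lines are cultivar DH55 and carry the *acdS* gene of *Pseudomonas* sp. UW4, in one behind the double CaMV *35S* promoter and in the other behind the *rolD* promoter of *Agrobacterium rhizogenes*. Pots received 192 mM NaCl (15 dS m-1) from 7 days after sowing, and whole shoots were taken after 21 days of salt, at 28 days, shortly before bolting. The soil of both lines was given MgSO4 buffer in place of bacteria. The other 6 libraries came from untransformed DH55 with salt and buffer (the control) and from DH55 with salt in soil inoculated with *Pseudomonas migulae* 8R6. The lines were individual single-copy transformants and the labels name no line beyond its promoter, so the promoter and the place of the insertion cannot be told apart. All libraries came from salted plants, so how the lines differ without salt was not measured. Fewer cells of a type and less RNA per cell cannot be told apart in whole shoots.

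ACC deaminase, the product of *acdS*, breaks down 1-aminocyclopropane-1-carboxylate (ACC), the direct precursor of the plant hormone ethylene. The CaMV *35S* promoter is active in most plant tissues, whereas *rolD* is mainly, though not solely, a root promoter. Ethylene acts together with jasmonate, auxin, abscisic acid and salicylate, and these hormones control defence, cell expansion and the response to salt. The question here was which shoot genes separate plants that carry the enzyme under these promoters. The count table holds *C. sativa* identifiers only, so the transgene could not be used to check the labels.

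Library totals ran from 10520627 to 23267552 counts in *rolD::acdS* and from 11099030 to 22995441 in *35S::acdS*. Photosynthetic markers of shoot tissue were detected in all 6 libraries, with Csa08g050560 (photosystem I subunit D-1) at 29.9 to 49.6 CPM. The libraries separated only in part by line as wholes. The Spearman correlation across genes, given as a description, was 0.981 and 0.982 between *rolD::acdS* replicate 1 and *35S::acdS* replicates 2 and 3, but 0.976 and 0.978 between *rolD::acdS* replicate 1 and the others of its own line. Values below are given in the order of replicates 1, 2 and 3.

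The genes that the study also measured by droplet digital PCR, an assay that counts template molecules with a fluorescent probe, are given first. Of 6 such genes 3 could be tested here. Their probes are shown 5′ to 3′ because each fixes the stretch of transcript that the assay reads, and no base is in capitals.
Csa07g039380: cccaaacactccttccgtaccag
Csa20g044800: cagttctgatcaaatcgttgttcaaac
Csa17g080380: tgccccgacatcaaccaaagt

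Csa07g039380, on chromosome 7, had 79.3, 76.01 and 112.6 CPM in *rolD::acdS* and 29.1, 30.9 and 76.2 CPM in *35S::acdS*, a log2 fold change of 0.98 ± 0.37 (SE), and the lines overlapped only through *35S::acdS* replicate 3. Csa20g044800, on chromosome 20, encodes myrosinase-binding protein 2, whose family associates with the enzyme that breaks down glucosinolates. It had 154.9, 72.1 and 105.4 CPM against 66.9, 21.3 and 70.9 CPM, a log2 fold change of 1.07 ± 0.50 without overlap. Csa17g080380, on chromosome 17, had 30.6, 18.3 and 26.4 CPM against 75.5, 38.7 and 20.1 CPM, and the *rolD::acdS* values lay within the range of *35S::acdS* but for replicate 2. The remaining 3 genes were below the filter on low counts, at 0.492 CPM or less in each library of either line.

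No gene was differentially-expressed between the lines, defined as an adjusted p up to 0.05 with a change above 2-fold (0 of 56932 genes, 0%). The smallest adjusted p in edgeR's quasi-likelihood test, with adjustment by Benjamini-Hochberg, was 0.285. Without adjustment, 7320 genes (12.9%) were under 0.05, of which 3858 (6.78%) were higher and 3462 (6.08%) lower in *rolD::acdS*. Above 2-fold the same threshold left 669 higher genes (1.18%) and 625 lower genes (1.10%). The libraries of the lines did not overlap for 11380 genes (20.0%), 5663 (9.95%) higher and 5717 (10.0%) lower. The median log2 fold change over all genes was 0.0026. The number of genes called depended on the model. A fit of the 6 *acdS* libraries alone gave 15 genes, DESeq2 gave 107, and edgeR's exact test with a fixed biological coefficient of variation (BCV) of 0.2 gave 1370. It also depended on single libraries, since 3837 genes had an unadjusted p under 0.05 without *35S::acdS* replicate 1 and 4812 without *rolD::acdS* replicate 2. In what follows, "higher" and "lower" describe values in *rolD::acdS* relative to *35S::acdS*, "at p" means at an unadjusted p under 0.05, and no gene named passed the adjusted threshold.

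**Figure D1:**
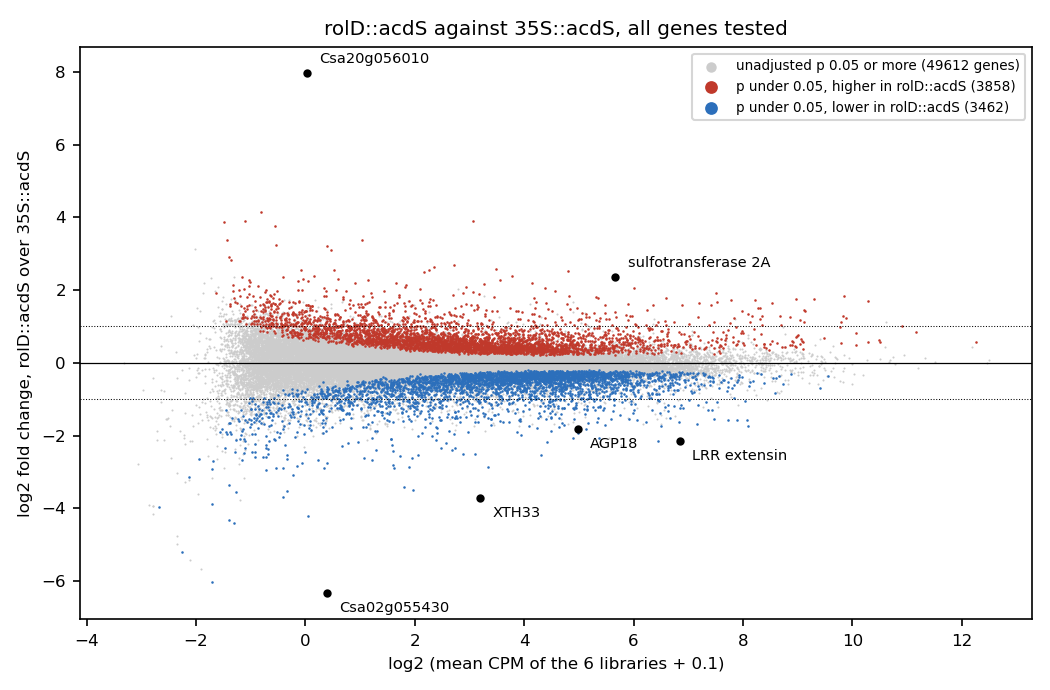
Log2 fold change of *rolD::acdS* over *35S::acdS* (y axis) against mean expression (x axis, log2 scale) for the 56932 genes tested. Each point is a gene, with 3858 higher and 3462 lower genes at an unadjusted p under 0.05 coloured, and the cloud is centred near 0.

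The gene that separated the lines most was Csa20g056010, which has no annotation in the sources used here. It had 38, 22 and 19 counts in *rolD::acdS* and 0 counts in each library of *35S::acdS* and of the control. With *P. migulae* 8R6 it had 0, 0 and 1 counts. Against a floor of 3 counts per library it was at least 8.83-fold higher in *rolD::acdS*, with an adjusted p of 0.285 (edgeR). It was the only gene called by limma-trend and by limma-voom with quality weights. The nearest tested genes in the order of identifiers, Csa20g056000 and Csa20g056020, had log2 fold changes of -0.31 and -0.02, with overlap. Whether Csa20g056010 lies near the insertion was not tested.

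Near absence in one line was rare. With at most 3 counts in every library of one line and 0.5 CPM or more in every library of the other, 2 genes were silent in *35S::acdS*, Csa20g056010 and Csa12g011380. Csa12g011380 had 13, 8 and 7 counts in *rolD::acdS* and 2, 3 and 1 in *35S::acdS*, a ratio of depth-scaled summed counts of 4.93 (95% interval 2.00 to 14.6, counting error only). In the opposite direction 3 genes met the rule. Csa02g055430, an F-box/RNI-like protein gene, had 1, 0 and 0 counts in *rolD::acdS* and 15, 45 and 47 in *35S::acdS*. Its ratio was 101 (17.8 to 4038), and the control had 4, 20 and 7 counts. Csa15g003540 had 2, 3 and 2 counts against 16, 19 and 6, and Csa01g013090 had 2, 3 and 1 against 9, 28 and 6. With a floor of 0 counts, 1 gene was left, Csa20g056010.

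Among the other higher genes with the smallest p, Csa12g066100, a cytochrome P450 gene, had 2.78, 3.74 and 2.76 CPM in *rolD::acdS* and 0.769, 0.847 and 0.952 CPM in *35S::acdS*. Its log2 fold change was 1.84 ± 0.28, and the control, at 2.35 ± 0.756 CPM (SD, n = 3), lay nearer to *rolD::acdS*. Csa07g027960, annotated as related to ubiquitin carboxyl-terminal hydrolases, which remove ubiquitin from proteins, had 4.71, 5.57 and 6.496 CPM against 1.69, 1.25 and 0.952 CPM. Here the control mean of 1.41 CPM lay near *35S::acdS*, so these genes differ in which line lay apart from the control. Csa20g009740, of the calreticulin family of calcium-binding chaperones, had 8.298, 7.48 and 6.299 CPM against 2.61, 2.99 and 3.72 CPM. Csa01g021670 (RING/U-box superfamily) had a log2 fold change of 1.16 ± 0.19, and the unannotated Csa11g003280 one of 2.19 ± 0.34. For these 5 genes the lines did not overlap, and each had an adjusted p of 0.285 (edgeR).

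In the opposite direction, Csa02g053330, a ribosomal protein L6 family gene, had 1.88, 2.01 and 3.25 CPM in *rolD::acdS* and 5.46, 6.15 and 6.32 CPM in *35S::acdS*, with a control mean of 6.41 CPM. Csa11g032420, of the Mo25 family, whose animal and yeast members are scaffolds of protein kinases, had 1.88, 1.73 and 1.87 CPM against 6.46, 5.04 and 5.37 CPM. For this gene the control, at 1.69 ± 0.393 CPM (SD, n = 3), lay with *rolD::acdS*. The unannotated Csa19g036360 and Csa04g009920 had log2 fold changes of -1.13 and -1.15, and the lipase gene Csa11g044470 one of -2.58. None of these genes overlapped between the lines.

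Functional groups were described with 26 lists from the 1231 genes annotated in supplementary tables of the study, of which 1188 could be tested. Of the 1188, 831 were lower and 357 higher, with a median log2 fold change of -0.58. At p, 213 were lower and 129 higher, 28.8% in all, beside 12.9% of all genes tested. List medians and counts below are to be read beside these values. The study chose the annotated genes on the same libraries, each treatment against the control. The direction of a list drawn from the table of one *acdS* line is therefore not independent evidence. The comparisons with the control share its 3 libraries. The 556 tested genes listed for *rolD::acdS* alone had a median log2 fold change of -1.05, and the 199 listed for *35S::acdS* alone one of 0.66. The *rolD::acdS* table was read in part, so genes given for *35S::acdS* or *P. migulae* 8R6 alone may include some listed for *rolD::acdS*. The 314 genes listed for *P. migulae* 8R6 alone were found for neither *acdS* line in the tables as read. Their choice thus also rested on the libraries compared here. They had a median of -0.03. Of these, 25 were higher and 8 lower at p, but 30 were higher and 39 lower without *35S::acdS* replicate 3, and 14 higher and 19 lower without *rolD::acdS* replicate 1. Their median changed sign, to 0.08, without *35S::acdS* replicate 1, and the median of genes listed for *rolD::acdS* alone was -0.68 without *35S::acdS* replicate 2.

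**Figure D2:**
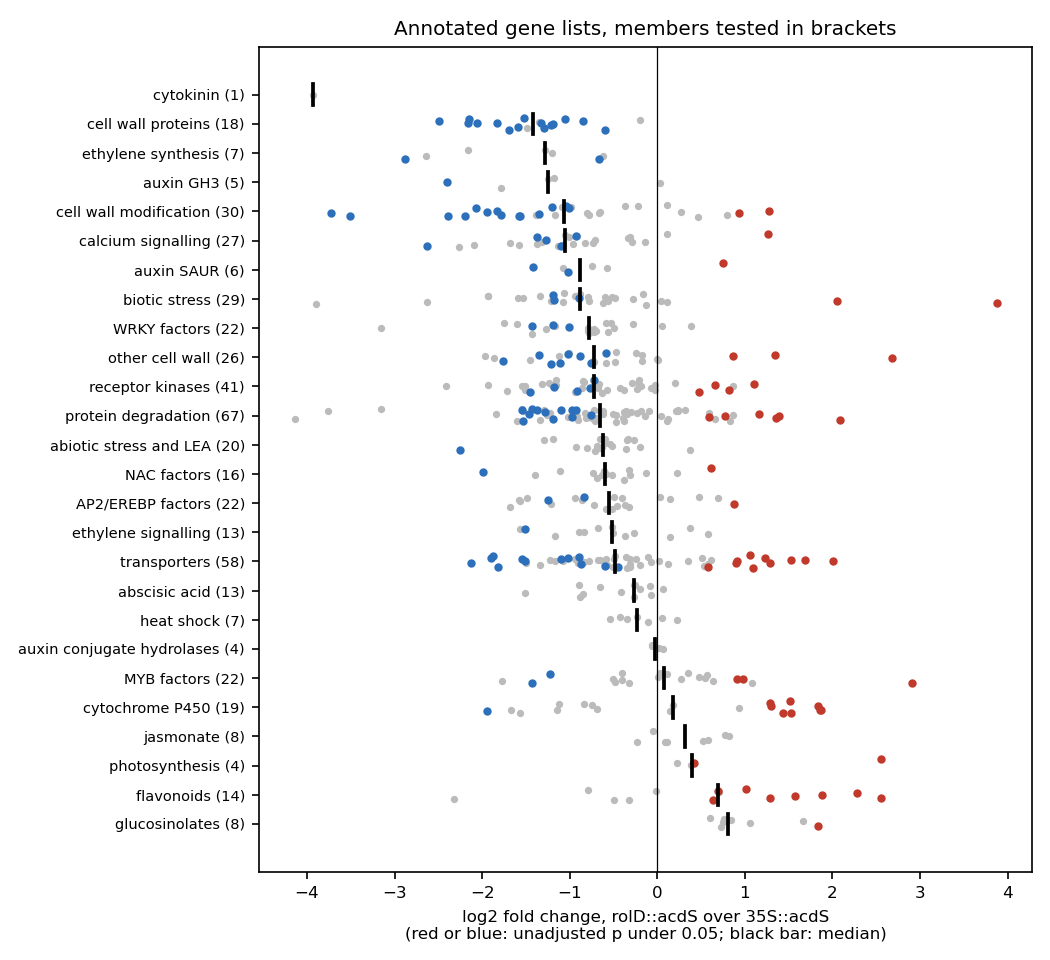
Log2 fold change of *rolD::acdS* over *35S::acdS* (x axis) for the tested members of the annotated lists (y axis). Each circle is a gene, and bars are medians, which ran from -1.42 for cell wall proteins to 0.80 for glucosinolates among lists of more than 1 gene.

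Cell wall proteins had the lowest median of the lists with more than 1 tested gene. Arabinogalactan proteins and leucine-rich repeat extensins are glycoproteins of the wall and the cell surface, and xyloglucan endotransglucosylase/hydrolases (XTH) cut and rejoin the xyloglucan that ties cellulose together. All 18 tested cell wall protein genes were lower, 15 at p and 14 without overlap, and the median log2 fold change was -1.42. Of all genes tested 49.6% were lower, and of the 1188 annotated genes 831. Against the control, their median was -1.17 in *rolD::acdS* and 0.38 in *35S::acdS*. Of the list's 19 genes, 17 came from the *rolD::acdS* table. Leaving out each library in turn left 13 to 15 genes lower at p and the median between -1.66 and -1.17.

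All 3 homeologues of arabinogalactan protein 18 were among them. Csa12g003890 had 38.2, 38.4 and 34.7 CPM in *rolD::acdS* and 129.5, 80.8 and 63.1 CPM in *35S::acdS*, a log2 fold change of -1.29 ± 0.24 with an adjusted p of 0.296 (edgeR). Csa10g003690 had 15.3, 13.6 and 12.5 CPM against 77.96, 39.3 and 30.2 CPM, and Csa11g004150 had 27.3, 33.8 and 22.5 CPM against 103.3, 52.8 and 53.8 CPM. The *rolD::acdS* libraries lay below all *35S::acdS* libraries, of which replicate 1 was the highest for each homeologue. Without that replicate the log2 fold changes were -0.95, -1.33 and -0.93. The control means of 72.6, 30.99 and 61.2 CPM lay between the lines.

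Families within the wall lists were picked after their values were seen. Of the 12 tested arabinogalactan protein genes all were lower, 10 at p and 9 without overlap, with log2 fold changes from -1.82 to -0.85. One of them, the arabinogalactan protein 7 gene Csa02g074400, had 15.1, 9.58 and 12.4 CPM against 53.97, 25.8 and 42.2 CPM and a control mean of 15.4 CPM, so that *35S::acdS* lay apart from the control. The 4 tested leucine-rich repeat extensins had log2 fold changes from -2.50 to -2.06, all at p and without overlap. Of these Csa10g033530, an ortholog of *A. thaliana* AT4G13340 (*LRX3*), had 57.9, 31.1 and 36.7 CPM in *rolD::acdS*, 256.4, 157.99 and 147.2 CPM in *35S::acdS* and 102.3, 47.9 and 181.4 CPM in the control. The control libraries spread over much of the gap between the lines.

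The list of cell wall modification, mostly XTH genes and expansins, had 24 of 30 tested genes lower, 14 of them at p, and 2 higher at p. Its median was -1.06, and -1.83 without *rolD::acdS* replicate 1. The *XTH16* gene Csa19g035430 had 2.99, 1.55 and 1.08 CPM in *rolD::acdS* and 16.9, 5.79 and 9.61 CPM in *35S::acdS*, a log2 fold change of -2.38 ± 0.54, and its homeologue Csa15g046990 one of -2.20 ± 0.50. Neither overlapped between the lines. Among families picked after their values were seen, 24 of 25 XTH genes were lower, 13 at p, with a median of -1.09 that was -1.92 without *rolD::acdS* replicate 1. The *XTH33* genes differed most, Csa03g014080 with 2.22, 0.274 and 0.689 CPM against 26.8, 5.84 and 18.5 CPM and Csa17g014280 with 1.198, 0.0912 and 0.0984 CPM against 11.99, 2.94 and 6.58 CPM. The expansins, which loosen walls without cutting them, were split, with 5 of 7 higher and a median of 0.27, or 0.16 and 0.41 without *rolD::acdS* replicates 1 and 2. At p, 1 was higher and 2 were lower, the expansin-like A2 homeologues Csa11g001310 (-1.57) and Csa10g001200 (-1.04).

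The remaining wall genes, which include pectin enzymes and polysaccharide synthases, had 21 of 26 lower, 8 at p, and 3 higher at p, with a median of -0.73. The median was -1.23 without *rolD::acdS* replicate 1 and -0.46 without *35S::acdS* replicate 2. Csa08g052140, of the pectin methylesterase superfamily, whose members modify pectin, had 14.5, 9.22 and 9.65 CPM against 51.3, 34.004 and 29.7 CPM, a log2 fold change of -1.77 ± 0.38. The cellulose synthase-like A10 gene Csa14g031160 ran the other way, with 4.45, 9.22 and 19.9 CPM against 0.692, 1.25 and 3.37 CPM (2.68 ± 0.75). It was listed for *35S::acdS*, and its control mean of 6.82 CPM lay between the lines.

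**Figure D3:**
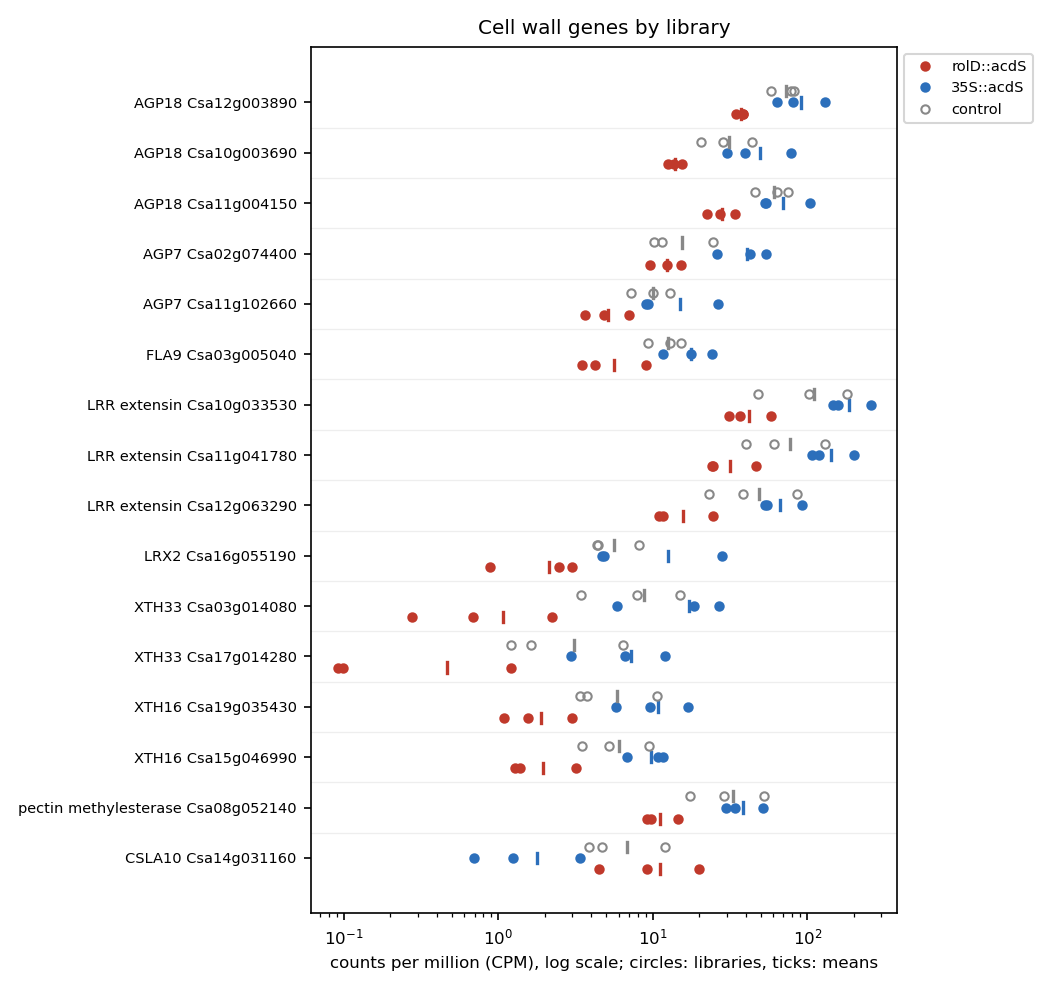
CPM of named cell wall genes on a log scale (x axis), with a circle for each library of *rolD::acdS*, *35S::acdS* and the control and a tick at each mean of 3 libraries. The *XTH33* gene Csa03g014080 has 2.22 CPM or less in *rolD::acdS* and 5.84 CPM or more in *35S::acdS*.

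The flavonoid list had 9 of 14 genes higher (50.4% of all genes tested were higher), 8 at p, and 0 lower at p, with a median of 0.70. Of the 8 genes higher at p, 7 are not known as enzymes of flavonoid synthesis: their *A. thaliana* orthologs are 2-oxoglutarate-dependent oxygenases that hydroxylate jasmonate and so inactivate it. Csa05g015290 had 19.4, 31.9 and 6.496 CPM in *rolD::acdS* and 2.61, 3.25 and 6.32 CPM in *35S::acdS* (log2 fold change 2.28 ± 0.55), so that replicates 3 of the lines nearly met. *JASMONATE-REGULATED GENE 21* (Csa09g068130) had 5.09, 2.55 and 3.44 CPM against 1.08, 1.604 and 1.99 CPM, also without overlap. The 4 genes of the list whose orthologs are salicylate hydroxylases, which degrade salicylate, were all lower with 0 at p and a median of -0.65, or -0.26 without *35S::acdS* replicate 2. They were picked after their values were seen.

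Annotated genes whose *A. thaliana* orthologs hydroxylate jasmonate or its isoleucine conjugate, or sulfate the product, were then gathered. The set was picked after values were seen. It holds the oxygenases, the CYP94B cytochromes P450 that hydroxylate jasmonoyl-isoleucine, and sulfotransferase 2A, which sulfates hydroxylated jasmonate. The 4 conjugate hydrolase genes given below under auxin, with a median of -0.02, are not part of it. All 15 genes of the set were higher, 13 at p and 8 without overlap, with log2 fold changes from 0.69 to 2.56 and a median of 1.52. Of all genes tested, 6.78% were higher at p and 9.95% higher without overlap. The cytochrome P450 and flavonoid lists drew 8 of 22 and 2 of 14 members from the *35S::acdS* table. These shares are those of the whole lists and not of the set. The study chose its genes on these same libraries, so the direction of the set is not independent evidence. Without *rolD::acdS* replicate 1, or without *35S::acdS* replicate 1, 8 genes were at p and all 15 were still higher. Sulfotransferase 2A (Csa13g009030) had 87.1, 136.7 and 30.7 CPM in *rolD::acdS*, 8.84, 13.9 and 27.5 CPM in *35S::acdS* and 33.9, 31.9 and 19.3 CPM in the control. The CYP94B gene Csa11g100390 had 10.8, 11.2 and 7.78 CPM against 2.15, 2.41 and 3.81 CPM, a log2 fold change of 1.86 ± 0.48. The median of the set against the control was 0.06 in *rolD::acdS* and -1.11 in *35S::acdS*, so *35S::acdS* lay farther from the control.

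**Figure D4:**
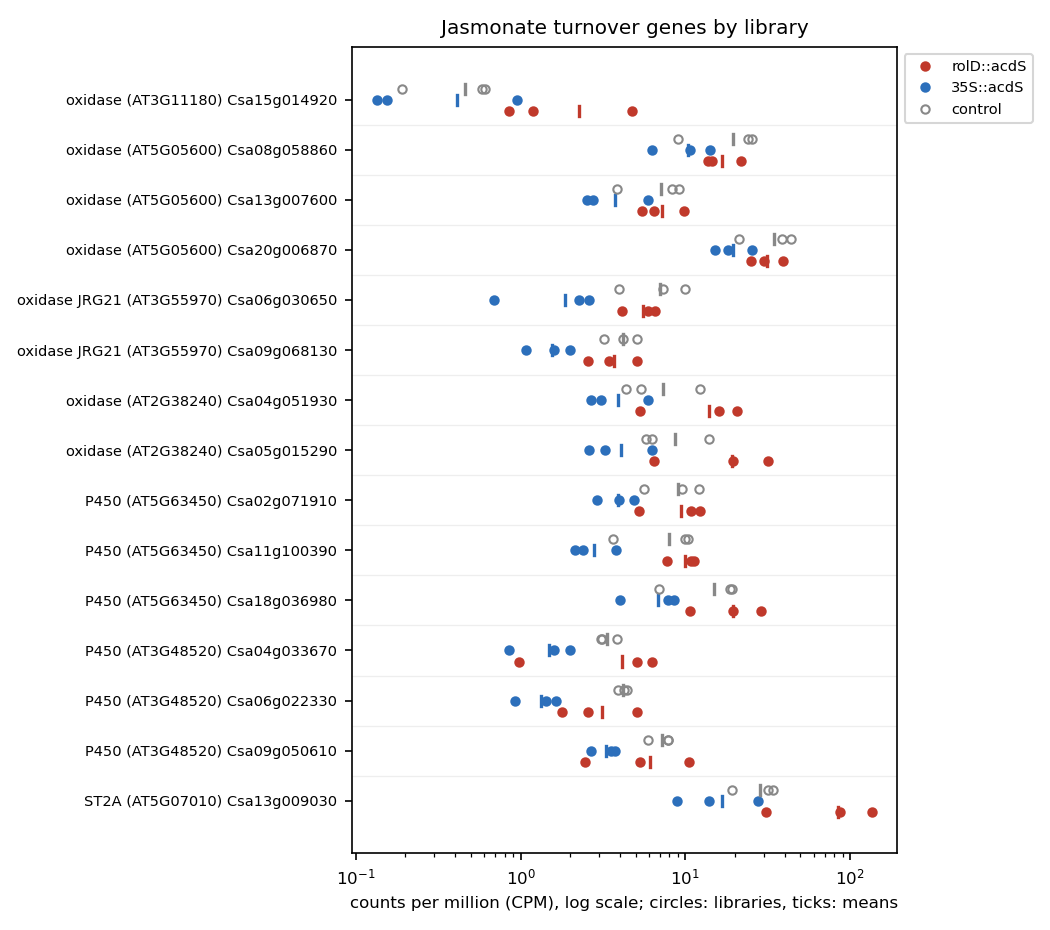
CPM of the 15 annotated genes of jasmonate hydroxylation or sulfation on a log scale (x axis). Each library of *rolD::acdS*, *35S::acdS* and the control has a circle, and each mean a tick. The circles of the lines do not overlap in 8 of the 15 genes, and in all 15 *rolD::acdS* is the higher.

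Genes of jasmonate synthesis differed less. Of the 8 genes, 6 were higher and 0 were at p, with a median of 0.31, or 0.47 with 2 at p without *35S::acdS* replicate 3. The lipoxygenase 3 genes Csa17g023140 and Csa03g021200, of the first step of synthesis, had log2 fold changes of 0.58 ± 0.28 and 0.52 ± 0.25. Vegetative storage protein 1 (Csa08g022350), long used as a marker of jasmonate in *A. thaliana*, had 1.45, 2.74 and 2.95 CPM in *rolD::acdS* and 0.308, 0.535 and 0.519 CPM in *35S::acdS*. Its control, at 2.09 ± 0.172 CPM (SD, n = 3), lay with *rolD::acdS*. The annotated jasmonate-zim-domain (*JAZ*) genes, picked after their values were seen, did not all run 1 way. Log2 fold changes of homeologues were -0.44 to -0.23 for *JAZ1* and -0.15 to 0.12 for *JAZ10*. They were 0.11 to 0.31 for *JAZ3* and 0.28 to 1.29 for *JAZ8*.

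The 8 genes of glucosinolates, sulfur-rich defence compounds of the Brassicaceae, were all higher, 1 at p (12.5%, near the 12.9% of all genes), with a median of 0.80. All were listed for *35S::acdS*. *CYP79F1* (Csa03g020150), which starts the synthesis of aliphatic glucosinolates, had 28.9, 32.1 and 71.6 CPM in *rolD::acdS* and 3.38, 18.7 and 14.4 CPM in *35S::acdS*, and the control had 45.3, 68.7 and 18.9 CPM. The list median was 0.45 without *35S::acdS* replicate 1 and 0.41 without *rolD::acdS* replicate 3, with 0 genes at p in either case, and 1.26 without *35S::acdS* replicate 2. Of 19 cytochrome P450 genes 11 were higher and 8 lower, with a median of 0.18 that was 0.12 without *rolD::acdS* replicate 2 and 0.99 without *35S::acdS* replicate 2. At p, 8 were higher, 5 of them CYP94B genes, and 1 was lower. The 3 genes whose orthologs act in the synthesis of camalexin, an indole defence compound of *A. thaliana*, were all lower with 0 at p and a median of -1.57, or -0.99 without *35S::acdS* replicate 2. This group too was picked after its values were seen. The gene lower at p, Csa19g027880, had 13.3, 10.1 and 16.04 CPM against 21.8, 79.7 and 49.5 CPM.

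The genes of ethylene synthesis are closest to the substrate of ACC deaminase: ACC synthases make ACC and ACC oxidases turn it into ethylene. All 7 tested genes were lower, 2 at p and 0 without overlap, with a median log2 fold change of -1.28. All were listed for *rolD::acdS*. ACC synthase 7 gene Csa12g025860 had 0.0855, 0.0912 and 0.394 CPM in *rolD::acdS*, 0.231, 2.41 and 0.692 CPM in *35S::acdS* and 3.12, 1.45 and 6.86 CPM in the control. The control lay highest, and the lines overlapped through *rolD::acdS* replicate 3 and *35S::acdS* replicate 1. The ACC synthase 2 genes Csa03g001750 and Csa17g001950 had log2 fold changes of -1.28 ± 0.79 and -1.20 ± 0.75. ACC oxidase 4 gene Csa14g006260 had 39.6, 31.3 and 30.6 CPM against 35.1, 67.7 and 58.1 CPM, overlapping through *35S::acdS* replicate 1. The list median was -2.08 without *rolD::acdS* replicate 1 and -0.85 without *35S::acdS* replicate 2, the latter with 0 genes at p.

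Of 13 genes of ethylene signalling 10 were lower, 1 at p (7.69%, below the 12.9% of all genes), with a median of -0.52. The median was -0.29 without *rolD::acdS* replicate 2, and 4 genes were lower at p without *rolD::acdS* replicate 1. The gene at p with all libraries, *ETHYLENE AND SALT INDUCIBLE 3* (Csa08g022870), had 10.1, 8.67 and 10.7 CPM in *rolD::acdS* and 44.97, 18.5 and 20.9 CPM in *35S::acdS*. The control, at 11.2 ± 3.296 CPM (SD, n = 3), lay near *rolD::acdS*. *ERF4* (Csa19g021900), a repressor in *A. thaliana*, had a log2 fold change of 0.58 ± 0.27.

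For auxin, 5 of 6 SAUR genes, which respond early to the hormone, were lower, 2 at p, and 1 was higher at p, with a median of -0.88. The *SAUR78* gene Csa07g039520 had 9.28, 4.29 and 4.43 CPM in *rolD::acdS* and 12.9, 15.4 and 21.7 CPM in *35S::acdS*, against a control mean of 5.16 CPM. Without *rolD::acdS* replicate 2, *rolD::acdS* replicate 3 or *35S::acdS* replicate 3, 0 of the SAUR genes were at p. Of the 6 genes, 5 came from the *35S::acdS* table. The GH3 genes, whose enzymes conjugate auxin and other hormones to amino acids, had a median of -1.25 over 5 genes, -1.98 without *rolD::acdS* replicate 1 and -0.29 without *35S::acdS* replicate 2. Csa10g003770 had 0.556, 1.09 and 0.787 CPM against 1.85, 8.38 and 1.38 CPM, with replicate 2 of *35S::acdS* far above the others. The 4 auxin conjugate hydrolase genes had a median of -0.02, which was 0.09 without *rolD::acdS* replicate 3.

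Cytokinin oxidase 3, which degrades cytokinins, was close to absent in both lines. Csa11g090460 had 0 counts in each *rolD::acdS* library and 0, 4 and 1 in *35S::acdS*, against 6, 11 and 15 in the control. The abscisic acid genes, mostly PP2C phosphatases that restrain its signalling, had 12 of 13 members lower and 0 at p, with a median of -0.27. *HIGHLY ABA-INDUCED PP2C GENE 1* (Csa11g092890) had 63.8, 38.05 and 65.2 CPM in *rolD::acdS* and 138.3, 110.8 and 50.9 CPM in *35S::acdS*, where replicate 3 stood apart. Without that replicate 4 genes were lower at p and the median was -0.54. The median was -0.67 and -0.18 without *rolD::acdS* replicates 1 and 2, and -0.17 without *35S::acdS* replicate 2.

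The same replicate stood apart in the list of abiotic stress genes, which holds late embryogenesis abundant proteins and dehydrins, proteins that protect cells when water is scarce, beside other genes. Of its 20 members 19 were lower, with a median of -0.62, or -0.35 without *35S::acdS* replicate 2. The 1 gene at p was Csa07g029570, annotated as NDR1/HIN1-like, a family named for genes of defence, with 0.214, 0.0912 and 0.197 CPM in *rolD::acdS* and 0.231, 1.25 and 1.04 CPM in *35S::acdS*. Of the 12 late embryogenesis abundant and 3 dehydrin genes, grouped after their values were seen, 0 were at p, but 4 and 3 were lower at p without *35S::acdS* replicate 3. The late embryogenesis abundant gene Csa19g024650 had 1.67, 1.19 and 2.56 CPM in *rolD::acdS* and 5.305, 6.86 and 0.519 CPM in *35S::acdS*. Replicate 3 of *35S::acdS* was the lowest of these libraries and its replicates 1 and 2 were the highest.

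Of 29 biotic stress genes 25 were lower, 3 at p, and 2 were higher at p, with a median of -0.88. *PATHOGENESIS-RELATED GENE 5* (Csa07g046470), a marker of salicylate signalling, had 19.1, 10.5 and 12.1 CPM in *rolD::acdS* and 30.5, 30.8 and 35.7 CPM in *35S::acdS*, with a control mean of 41.1 CPM. Its homeologues Csa16g038950 and Csa09g079640 had log2 fold changes of -0.88 and -0.13, neither at p. The Kunitz protease inhibitor gene Csa09g077890 ran the other way, with 23.9, 35.5 and 40.5 CPM against 3.92, 6.51 and 13.9 CPM. Of 22 genes of WRKY factors, regulators of defence, 20 were lower, 3 at p (13.6%, near the 12.9% of all genes), with a median of -0.78. *35S::acdS* replicate 2 was the highest library for both lists, and without it the medians were -0.43 and -0.51.

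Receptor kinases, which sense ligands at the cell surface, had 35 of 41 members lower and a median of -0.72, with 5 lower and 4 higher at p. Calcium signalling genes had 25 of 27 lower and a median of -1.06, with 5 lower and 1 higher at p. The calmodulin-binding protein gene Csa12g016080 had 9.45, 8.58 and 7.19 CPM in *rolD::acdS* and 27.98, 14.3 and 19.3 CPM in *35S::acdS*, without overlap. Without *35S::acdS* replicate 1, 13 receptor kinases and 10 calcium signalling genes were lower at p, and without *35S::acdS* replicate 2 the medians were -0.26 and -0.58. Every member of the calcium list was listed for *rolD::acdS*.

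MYB factors were split, 13 higher and 9 lower, with a median of 0.07 that was -0.35 without *rolD::acdS* replicate 1 and 0.24 without *rolD::acdS* replicate 2. *MYB52* (Csa14g022280) had 0.642, 0.365 and 0.492 CPM in *rolD::acdS* and 0, 0.0891 and 0.0865 CPM in *35S::acdS*. *MYB77* (Csa06g024140), a regulator of auxin responses in *A. thaliana*, had 8.298, 4.01 and 5.12 CPM against 22.1, 14.3 and 12.1 CPM. These genes lay on opposite sides, each without overlap. NAC factors had 14 of 16 lower and a median of -0.59, with 1 lower and 1 higher at p. AP2/EREBP factors had 17 of 22 lower and a median of -0.55, with 2 lower and 1 higher at p. These medians were -0.32 and -0.31 without *rolD::acdS* replicate 2, and -0.36 and -0.27 without *35S::acdS* replicate 2. The shares at p, 12.5% for NAC and 13.6% for AP2/EREBP factors, were near the 12.9% of all genes tested.

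Of 58 transporter genes 12 were lower and 10 higher at p, with a median of -0.48. Csa02g067760, of the heavy metal transport/detoxification superfamily, had 15.01, 14.4 and 20.4 CPM in *rolD::acdS*, 28.2, 35.4 and 37.04 CPM in *35S::acdS* and a control mean of 49.7 CPM. Its homeologues Csa11g094660 and Csa18g034180, picked after their values were seen, had log2 fold changes of -1.10 ± 0.28 and -0.87 ± 0.23, and none of these genes overlapped between the lines. *SLAC1 HOMOLOGUE 2* (Csa12g022710), of a family of anion channels, had 3.08, 2.46 and 1.87 CPM against 10.5, 5.48 and 6.06 CPM. Protein degradation had 50 of 67 genes lower and a median of -0.65, which was -0.14 without *35S::acdS* replicate 2. The 7 heat shock genes had a median of -0.23 and 0 genes at p. This direction did not hold without *rolD::acdS* replicate 2, at 0.02, and the median was -0.44 without *rolD::acdS* replicate 1 and -0.02 without *35S::acdS* replicate 1.

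The photosynthesis list holds the 4 shoot markers, all listed for *P. migulae* 8R6 alone. All 4 were higher, 2 at p, with a median of 0.40, which was 0.76 without *35S::acdS* replicate 2 and 0.21 without *35S::acdS* replicate 3. Photosystem I subunit D-1 (Csa08g050560) had 35.8, 49.6 and 43.2 CPM in *rolD::acdS* and 33.1, 32.8 and 29.9 CPM in *35S::acdS*, a log2 fold change of 0.42 ± 0.13. *PsbQ*-like 1 (Csa01g001010), a subunit of the chloroplast NAD(P)H dehydrogenase complex in *A. thaliana*, had 1.37, 1.09 and 1.87 CPM against 0.154, 0.178 and 0.433 CPM. Neither overlapped between the lines, whereas the light harvesting genes Csa14g037480 and Csa06g036870 did, with log2 fold changes of 0.38 ± 0.49 and 0.22 ± 0.24.

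**Figure D5:**
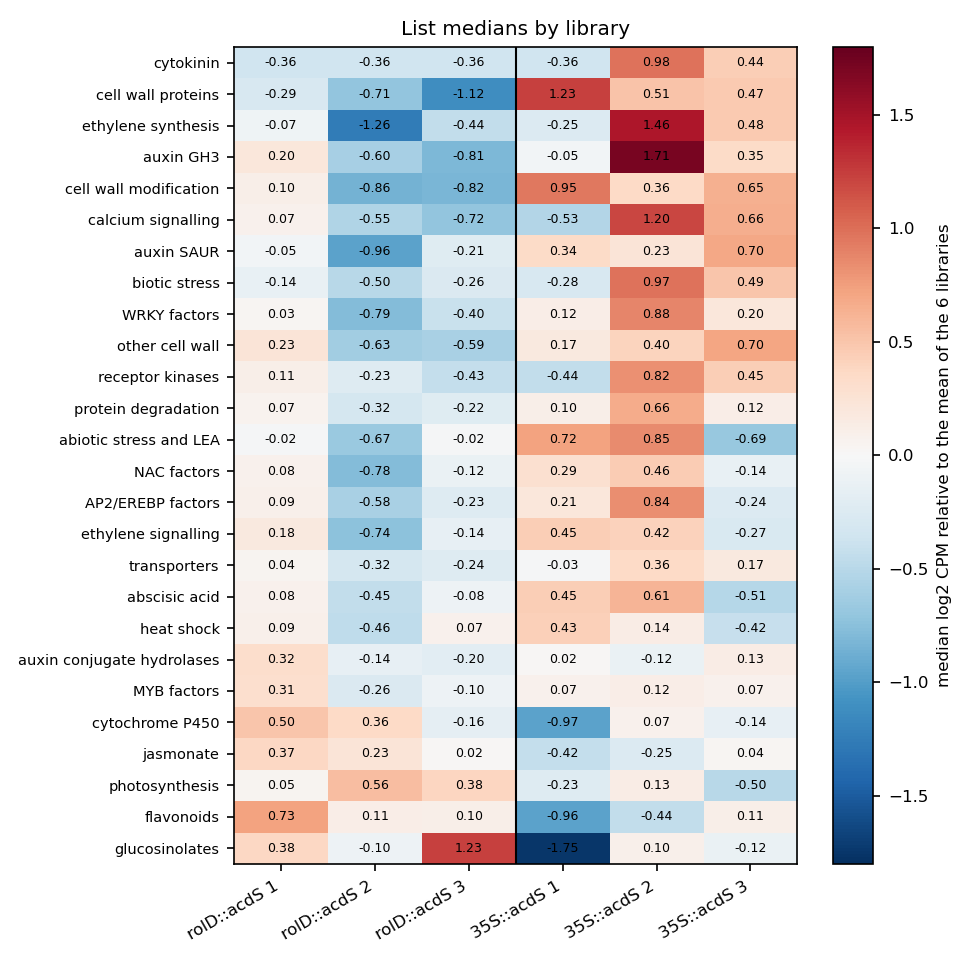
Median log2 CPM of each annotated list (rows) in each library (columns), relative to the mean of the 6 libraries. For example, *35S::acdS* replicate 2 is at 1.71 for GH3 genes and *35S::acdS* replicate 1 at -1.75 for glucosinolates, and libraries of 1 line differ from each other in other lists too.

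Runs of neighbouring genes were examined in windows of 25 genes in the order of the identifiers. The highest of 49061 window medians of log2 fold change was 0.32 on chromosome 8, from Csa08g047340 to Csa08g048770, and the lowest was -0.33 on chromosome 2, from Csa02g001140 to Csa02g001470. In the former, Csa08g048600 had 131.8, 154.5 and 164.1 CPM in *rolD::acdS* and 100.4, 97.4 and 99.5 CPM in *35S::acdS*. In the latter, Csa02g001230 had a log2 fold change of -0.67 ± 0.17. With windows of 15 genes the extremes were 0.53 on chromosome 2 and -0.51 on chromosome 11, where the window from Csa11g012900 to Csa11g013140 includes neighbouring XTH genes.

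*C. sativa* carries 3 closely related subgenomes, so homeologues can be set beside each other. In 244 groups of 2 or 3 annotated genes with the same *A. thaliana* ortholog, all members lay on the same side in 212 (86.9%). In 40 groups every member was at p in the same direction, lower in 26 and higher in 14. The annotated genes were chosen on these same libraries. Of the 1188 tested, 831 were lower and 28.8% were at p, and the counts of groups are to be read beside those values. How reads that match more than 1 homeologue were counted is not given in the sources used here, so homeologues may share reads.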

How the data were processed

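Per the submitters' processing notes, Trimmomatic and STAR were used on the reads before the authors deposited counts, whole numbers of reads per gene, for 89418 genes in 12 libraries. The counts were not divided by library size, although the table is named for CPM. Whether strand was used in counting is not given in the sources used here. With the 4 groups fitted together, the p-values rest on the spread between the 3 libraries within every group, described as biological replicates. That spread therefore also draws on the control and on the plants in inoculated soil, not only on the lines compared.

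The filter kept every gene that reached 0.5 CPM in 3 or more libraries. Counts were normalized by TMM in edgeR 4.0.16 (R 4.3.3), the 4 groups were fitted together without covariates, and the contrast was tested by the quasi-likelihood method of edgeR, with p-values adjusted (Benjamini-Hochberg) over the 56932 genes. The common BCV was 0.189, and 0.162 with only the 6 libraries of the *acdS* lines. Standard errors are the absolute log2 fold change over the square root of the F statistic. An exact permutation test of 3 libraries against 3 cannot go below a p of 0.1. The pipeline was tested on simulated data. Alternatives used DESeq2 1.42.0, limma 3.58.1, other filters and normalizations, and left out each library in turn.

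The comparison, the gene lists and the rules for naming genes were chosen with earlier results of these data known. Genes were named by rule: the non-overlapping genes above 2-fold with the smallest p (5 higher and 5 lower over all genes, 8 and 8 among annotated genes), the 2 with the smallest p in each list, the silent genes, the top genes of the extreme windows, the ddPCR genes, and the ACC synthase, ACC oxidase and cytokinin oxidase genes of the paper. Annotations came from the supplementary tables of the study, of which the *rolD::acdS* table was read in part. None of the identifiers matched the reference gene table, so no coordinates are given. Chromosomes are those in the identifiers.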

Additional observations from a re-analysis of the deposited data

How the results depend on the processing

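The count of 0 differentially-expressed genes was also obtained with RLE or upper quartile normalization, without a filter, with a filter of 2 CPM and with the BCV fixed at 2, the setting that the methods of the study state. It was 15 with only the 6 libraries of the *acdS* lines, 107 with DESeq2, 1 with limma-trend, 1 with limma-voom and quality weights, and 1370 with edgeR's exact test at a BCV of 0.2. DESeq2 shared 7 of the 15 genes of the model with 6 libraries, and all 107 were among the 1370. With the BCV fixed at 2, 0 genes had an unadjusted p under 0.05. Leaving out each library in turn gave 0 to 1 differentially-expressed genes and 3837 to 8270 genes at an unadjusted p under 0.05. The single gene, called without *rolD::acdS* replicate 3, was Csa12g036780. The cause of these shifts was not tested. Upper quartile normalization moved the median of all genes to 0.03.

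The replicate numbers did not pair the libraries: deviations of same-numbered libraries from their group means correlated at 0.086, -0.059 and -0.019, and 1 of 3 correlated best with its own number. With the replicate block, 0 genes were differentially-expressed and 8534 had an unadjusted p under 0.05.

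For 81 named genes, 1276 of 1362 values under alternatives kept direction and side of the threshold and 82 passed it. The remaining 4 reversed a difference near 0: Csa14g060060 had 0.06, and -0.21 to 0.24 on leaving out each library in turn, and Csa03g046940 had -0.06, and -0.26 to 0.079. List medians stayed within the spread between libraries in 442 of 458 values. With 10520627 to 23267552 counts per library, genes near 0.5 CPM rest on few reads, and with 3 libraries per promoter and no further line named the contrast describes these plants.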
